A study of Mus musculus with 18 samples.

Results

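The genes described here, 10 in number, encode parts of the brain extracellular matrix and were followed in mouse hippocampus after kainic acid (KA): the lecticans Acan, Bcan, Ncan and Vcan, the link proteins Hapln1 and Hapln4, the tenascins Tnr and Tnc, the receptor phosphatase Ptprz1 and the hyaluronan receptor Cd44. They were chosen as members of these families by gene symbol, and all 10 were found among the 55291 gene symbols of every library. All mice were male C57BL/6J (genotype WT). At 6 weeks of age they received an AAV in the right CA3 region that drives the tagged ribosomal protein EGFP-Rpl10a from the GfaABC1D promoter. The tag is therefore limited to infected cells in which this promoter, used for astrocytes, is active. The KA group received KA in the right dentate gyrus 2 weeks after the AAV, with RNA collected 14 days later. The PBS group received PBS after the AAV. The AAV control group received the AAV only, with RNA collected 2 weeks after it, so its time course and surgery differ from those of the KA group. Each group had 3 samples, each pooling the right hippocampi of 3 to 4 mice. From every sample an IP library (RNA bound by tagged ribosomes, pulled down with an anti-GFP antibody) and an input library (5 to 10 percent of the same supernatant, RNA of all hippocampal cells) were sequenced, 18 libraries in all.

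Lecticans are chondroitin sulfate proteoglycans that bind hyaluronan with one end and tenascins with the other. Link proteins of the Hapln family hold lecticans to hyaluronan, and together with Tnr these molecules build the perineuronal nets that wrap many neurons, above all parvalbumin interneurons. Aggrecan (Acan) is the usual core of such nets and is made largely by neurons, whereas brevican (Bcan) and neurocan (Ncan) are also products of astrocytes. Cd44 is the cell surface receptor that ties a cell to hyaluronan and is a known marker of reactive astrocytes.

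Library totals ranged from 7991681 to 16032180 counts. KA and AAV control samples #1 and #2 were sequenced in run 1 and #3 of both groups in run 2, so every KA value against the AAV control can also be given within a run. The PBS samples formed run 3, so for PBS the run and the group cannot be told apart. Without AAV control sample #3 the number of genes called between KA and the AAV control rose from 1960 to 3369 in IP and from 485 to 2643 in input, and member calls that changed without it in the fits with the FPKM filter are given beside the results. The labelled cell type was present in the IP libraries: the 6 astrocyte markers (Aldh1l1, Slc1a3, Slc1a2, Aqp4, Kcnj10 and Gja1) were all detected in all 18 libraries, and their summed FPKM was 1411 to 2398 in AAV control IP, 1529 to 2365 in PBS IP and 1020.4 to 1203 in KA IP. The oligodendrocyte sum (5 markers) was 1177 to 2265 in KA IP, 199 to 876 in AAV control IP and 222 to 471 in PBS IP. In input this sum was 661 to 867 in KA, 694 to 818 in the AAV control and 486 to 629 in PBS. It was thus higher in IP than in input in every KA sample and in AAV control sample #3, and lower in IP in the other samples. The neuron sum (4 markers) was 144 to 216 in KA IP against 69.8 to 109 and 76.1 to 132. The markers of a list did not all move with its sum. Of the 6 astrocyte markers, 4 were below the whole AAV control range in KA IP, led by the most abundant, Slc1a2 (mean 480 against 1359 FPKM), Kcnj10 (126 against 91.4) overlapped it, and Aqp4 was above it (352 against 183). Against PBS, 3 were below and Aqp4 and Kcnj10 were above. Of the oligodendrocyte markers 4 of 5 were above the AAV control range and 5 of 5 above that of PBS, and of the neuron markers 2 of 4 above each. The part of these shifts in the values below was not tested.

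On the mouse genome (GRCm38, as in the mm10 build of the files) each lectican gene lies beside a link protein gene with no annotated gene between. Acan (chromosome 7, 79053483 to 79115099, plus strand) ends 2 bp from Hapln3, Bcan (chromosome 3, 87987531 to 88000230, minus strand) lies 21519 bp from Hapln2, Ncan (chromosome 8, 70093085 to 70120873, minus strand) 2222 bp from Hapln4 and Vcan (chromosome 13, 89655312 to 89742509, minus strand) 43659 bp from Hapln1. Cd44 lies on chromosome 2 (102811141 to 102901665, minus strand) and Ptprz1 on chromosome 6 (22875502 to 23052916, plus strand). Acan, Bcan, Hapln4 and Ptprz1 overlap no other annotated gene. The other 6 overlap small or non-coding genes (such as Gm16318 and Gm4117 on the opposite strand of Vcan), whose reads could not be separated because the strand setting of the counting is not given in the sources used here.

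The 100 bases upstream of the RefSeq gene start (GRCm38.p6) are shown for the members that rose with KA in IP, Acan and Cd44, and for Bcan and Ptprz1, which fell there. Capitals mark CpG pairs, and each sequence is written 5′ to 3′ on the strand of its gene. They lie at chr7:79053126-79053225 (plus, Acan), chr2:102901666-102901765 (minus, Cd44), chr3:88000357-88000456 (minus, Bcan) and chr6:22875402-22875501 (plus, Ptprz1).
Acan: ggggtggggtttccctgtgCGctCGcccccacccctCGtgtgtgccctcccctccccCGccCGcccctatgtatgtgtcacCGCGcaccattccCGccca
Cd44: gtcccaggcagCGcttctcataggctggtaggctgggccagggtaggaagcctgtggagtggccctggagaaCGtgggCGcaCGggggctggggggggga
Bcan: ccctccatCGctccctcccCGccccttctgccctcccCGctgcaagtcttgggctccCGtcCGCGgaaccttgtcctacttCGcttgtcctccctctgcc
Ptprz1: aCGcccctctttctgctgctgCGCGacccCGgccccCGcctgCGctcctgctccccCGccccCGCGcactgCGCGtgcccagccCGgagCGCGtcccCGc
In the full RefSeq window of 300 bases around the start, Acan held 31 CpG pairs, Ptprz1 29, Bcan 24 and Cd44 6, against a median of 7 over 32851 windows. Hapln1, which was also lower in KA IP, held 3, so the members called in either direction included windows above and below the median. The AP-1 motif TGANTCA and the STAT motif TTCNNNGAA, searched on both strands, matched none of the 10 windows of the 9 members with an entry, while 7.81% and 8.30% of all windows held them.

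In AAV control IP the order of mean FPKM, a level per length of transcript, was Bcan (226 ± 27.5, SD, n = 3), Ncan (61.9 ± 25.8), Ptprz1 (30.6 ± 9.40), Hapln1 (7.12 ± 3.53), Cd44 (2.73 ± 0.564), Tnc (2.11 ± 0.891), Tnr (2.001 ± 0.103), Hapln4 (1.96 ± 0.359), Vcan (0.589 ± 0.0883) and Acan (0.100 ± 0.0888). Ncan and Ptprz1, and the genes from Hapln1 to Hapln4, overlapped their neighbour in this order, so only the steps below Bcan, Ptprz1, Hapln4 and Vcan exceeded the spread over samples. In KA IP, Ncan (51.7 ± 6.08) and Bcan (50.7 ± 7.33) came first with overlapping values, followed by Cd44 (27.7 ± 4.91) and Ptprz1 (10.4 ± 1.90). In KA input the 3 samples of Cd44 (6.09 ± 0.371 FPKM) overlapped those of Hapln4 (7.29 ± 0.865), from which it was far removed in AAV control input (0.396 ± 0.124 against 10.3 ± 1.38).

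**Figure D1:**
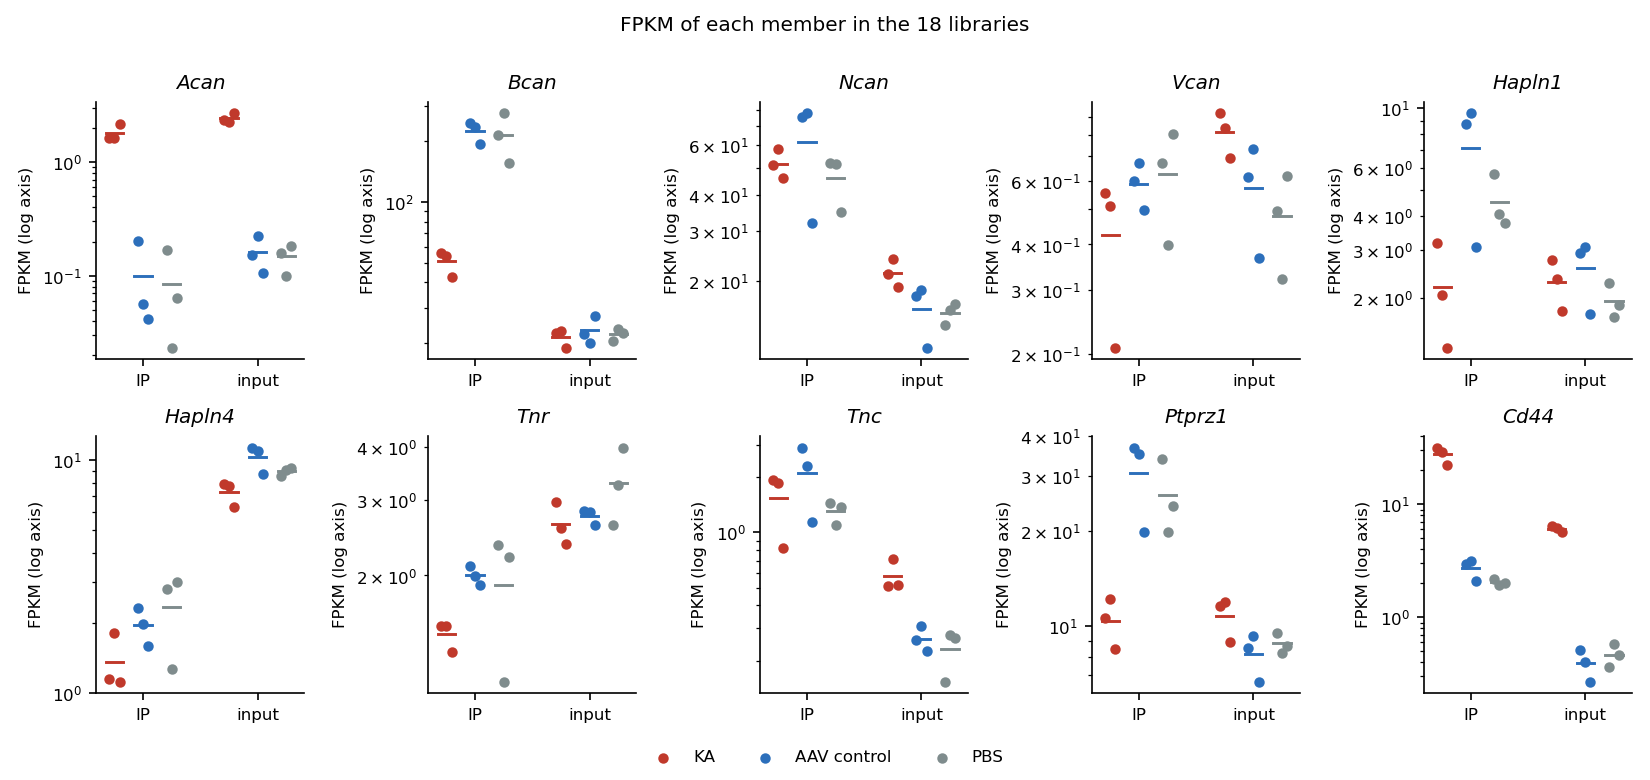
FPKM (log axis) of each of the 10 genes in the IP and input libraries of the KA, AAV control and PBS groups; points are the 3 samples of a group and lines their mean. Acan and Cd44 are higher in every KA library than in any comparison library of the same kind, and Bcan and Ptprz1 are lower in every KA IP library than in any other IP library.

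The first question was how KA differed from the AAV control and from PBS in RNA of tagged ribosomes. Against the AAV control, 7 members exceeded 1 FPKM in each of the 6 libraries, and 4 of them were called (adjusted p under 0.05, edgeR), where 20.1% of the 9729 genes tested were called. Without the FPKM filter all 10 members were tested and 5 were called, against 19.8% of 15312 genes. Against PBS, 4 of 7 members were called where 37.0% of 9847 genes were, and 5 of 10 without the filter where 40.4% of 15819 were. The called members were the same in both comparisons: Acan (tested without the filter only) and Cd44 were higher in KA, and Bcan, Ptprz1 and Hapln1 were lower. The median log2 fold change of the 10 members without the filter was -0.36 against the AAV control and -0.30 against PBS, beside -0.03 over all genes tested in each. These comparisons share the KA libraries.

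Cd44 read 31.9, 28.9 and 22.3 FPKM in the KA IP samples, 2.94, 3.15 and 2.08 in AAV control IP and 2.18, 1.93 and 2.01 in PBS IP. Every KA sample was above every comparison sample. The log2 fold change was 3.40 (SE 0.19, adjusted p = 0.00012) against the AAV control, a 10.6-fold difference, and 3.75 (SE 0.19, adjusted p = 1.5e-06) against PBS. It ranked 22nd from the top of the 9729 fold changes of the first comparison and 23rd of 9847 in the second. Within run 1 the log2 ratio of KA to AAV control was 3.32, and within run 2 it was 3.42. In input, Cd44 read 6.42, 6.16 and 5.69 FPKM in KA, 0.517, 0.402 and 0.270 in the AAV control and 0.367, 0.576 and 0.464 in PBS, again without overlap. There the log2 fold change was 3.96 (SE 0.20, adjusted p = 1.0e-04) against the AAV control and 3.66 (SE 0.16, adjusted p = 1.3e-08) against PBS, both without the FPKM filter. Microglia also express Cd44 when activated. The summed FPKM of 5 microglial markers in input was 145 to 207 in KA, 28.3 to 39.9 in the AAV control and 30.1 to 33.0 in PBS, and in IP 12.4 to 17.0, 5.56 to 8.85 and 5.77 to 9.42. All 5 were above both ranges in KA input, whereas in KA IP Aif1 was above both ranges and P2ry12 below both. The reactive astrocyte sum (Gfap, Vim, Serpina3n and Lcn2) was 4529 to 4784 in KA IP against 601 to 916 and 686 to 1250. The part of these cells in the Cd44 value was not tested, and in such bulk samples the number of cells and the RNA per cell cannot be told apart.

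Brevican fell in the KA IP samples. Its FPKM was 56.0, 53.8 and 42.4 in KA IP, 247, 236 and 195 in AAV control IP and 215, 275 and 156 in PBS IP, with no overlap. The log2 fold change was -2.10 (SE 0.18, adjusted p = 0.00050) against the AAV control, a 4.29-fold lower level, and -2.12 (SE 0.30, adjusted p = 0.00066) against PBS. Within run 1 it was -2.14 and within run 2 -2.20. The summed astrocyte markers differed by -0.85 and -0.88 on the same log2 scale in IP, a sum made up mostly of Slc1a2, with Aqp4 of the same list higher in KA IP than in both groups. In input Bcan lay between 19.0 and 27.3 FPKM in all 9 libraries, the groups overlapped and no change was called (-0.12, SE 0.17, adjusted p = 0.78 against the AAV control, and -0.05, SE 0.09, adjusted p = 0.70 against PBS).

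Neurocan, which astrocytes raise after many injuries, did not pass the test in IP. It read 51.0, 58.1 and 46.0 FPKM in KA IP, 75.7, 77.7 and 32.1 in AAV control IP and 51.9, 51.4 and 35.0 in PBS IP. The KA samples lay inside the range of the AAV control, whose sample #3 was well below the other two. The log2 fold change against the AAV control was -0.18 (SE 0.29, adjusted p = 0.71), and the log2 ratio was -0.49 in run 1 but 0.52 in run 2, so the runs went in opposite directions. In the fit to run 1 alone, Ncan was called lower (adjusted p = 0.0094), where 46.0% of 10474 genes were called. In input Ncan was 21.1, 23.8 and 19.0 FPKM in KA, 17.7, 18.5 and 11.7 in the AAV control and 14.03, 15.8 and 16.6 in PBS. The input KA samples were above all others, a difference that was called against PBS (log2 fold change 0.45, SE 0.10, adjusted p = 0.0061) and not against the AAV control (0.43, SE 0.17, adjusted p = 0.22). Against the AAV control it was called with sequencing run as a covariate (0.44, adjusted p = 0.026) and in run 1 alone (0.31, adjusted p = 0.0027), settings in which 16% and 41.6% of all genes were called.

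Aggrecan was barely detected outside the KA group. The AAV control IP libraries held 14, 4 and 4 counts (0.202, 0.0560 and 0.0418 FPKM), the PBS IP libraries 20, 2 and 5 counts (0.167, 0.0234 and 0.0638 FPKM) and the KA IP libraries 135, 126 and 178 counts (1.62, 1.62 and 2.17 FPKM). Input counts were 174, 161 and 204 in KA, 9, 16 and 10 in the AAV control and 12, 8 and 14 in PBS. Every KA library of either kind was above all comparison libraries. Without the FPKM filter the log2 fold change was 4.35 (SE 0.51, adjusted p = 0.0011) in IP and 3.93 (SE 0.27, adjusted p = 0.00020) in input against the AAV control, and 4.46 (SE 0.45, adjusted p = 1.5e-05) and 4.01 (SE 0.24, adjusted p = 2.4e-07) against PBS. The size in IP rests on the few counts of the comparison libraries: within run 1 the log2 ratio was 3.65 and within run 2 it was 5.70. The FPKM in input, 2.36, 2.26 and 2.68, was higher than in IP in each of the 3 KA samples. On TMM-scaled counts the ratio of IP to input in KA was 0.921 ± 0.122 (SD), so this difference depends on the scaling. It did not pass the test of IP against input in KA (log2 fold change -0.21, SE 0.21, adjusted p = 0.50). The summed FPKM of 5 parvalbumin interneuron markers was 57.3 to 79.0 in KA IP against 27.3 to 31.7 in the AAV control and 22.9 to 38.1 in PBS, and 102 to 112 in KA input against 144 to 193 and 141 to 148. Pvalb makes up most of the KA IP sum, and Kcnc2 of the same list was lower in KA IP (mean 0.561 FPKM) than in both groups (2.14 and 2.29). In KA input Gad2 (21.6) was above the AAV control (17.0), while the sum was below it.

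Versican (Vcan) stayed below 1 FPKM in all 18 libraries, from 0.208 to 0.919. In IP its values overlapped between groups, with log2 fold changes of -0.38 (SE 0.32, adjusted p = 0.43) against the AAV control and -0.40 (SE 0.32, adjusted p = 0.34) against PBS. In input it was higher in KA (0.919, 0.835 and 0.692 FPKM) than in PBS (0.496, 0.321 and 0.619), with a log2 fold change of 0.74 (SE 0.22, adjusted p = 0.024). This call was lost without KA sample #1, KA sample #2 or PBS sample #2, with an adjusted p of up to 0.10. The AAV control input (0.615, 0.731 and 0.368 FPKM) overlapped KA, and the difference of 0.52 was not called (SE 0.23, adjusted p = 0.26).

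The mix of lecticans differed between the groups in IP. Of the summed FPKM of the 4 lecticans, Bcan made up 46.7 to 51.3% in KA IP, 75.0 to 85.7% in AAV control IP and 80.3 to 84.2% in PBS IP. Ncan made up 46.7 to 50.9% in KA against 14.1 to 24.7% in the AAV control and 15.7 to 19.3% in PBS, while its own level did not pass the test. The sum itself was 90.8 to 114 FPKM in KA IP against 227 to 324 and 192 to 327. In input the sum was 41.4 to 49.9 FPKM in KA, 39.5 to 40.7 in the AAV control and 35.3 to 39.7 in PBS, and Acan took 4.54 to 6.47% of it in KA against 0.270 to 0.567% and 0.251 to 0.464%. These shares are a description without a test.

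**Figure D2:**
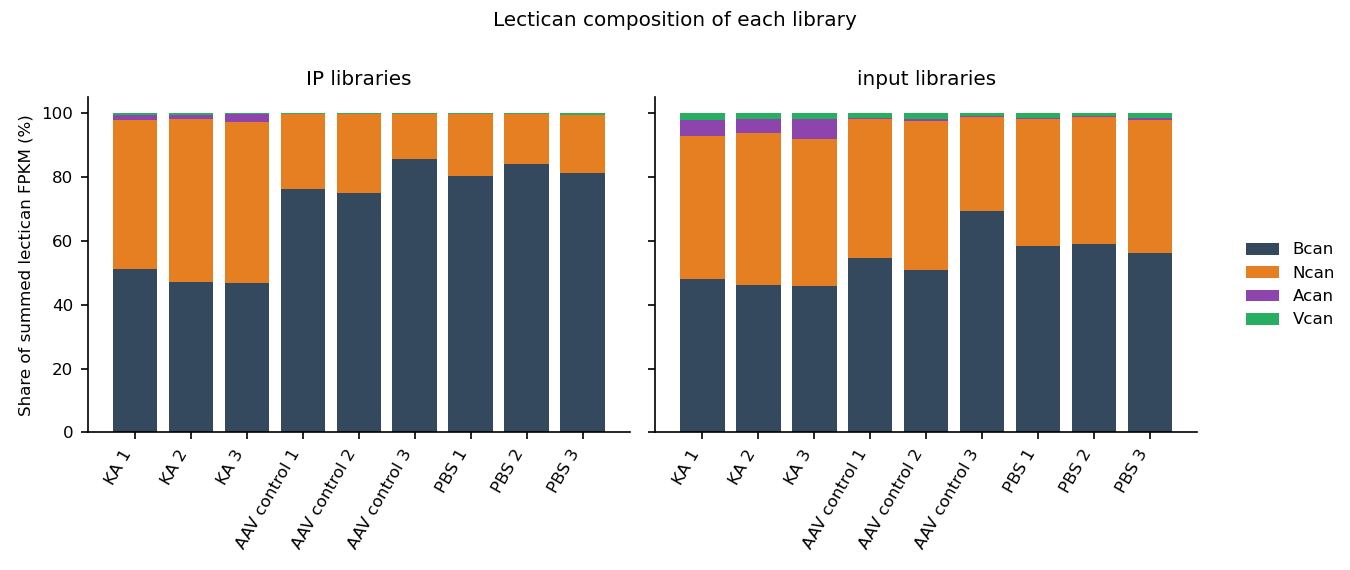
Share (%) of Bcan, Ncan, Acan and Vcan in the summed lectican FPKM of each library, IP on the left and input on the right, with 1 bar per sample. Bcan takes 46.7 to 51.3% in KA IP and 75.0% or more in the other IP libraries, and Acan takes at least 1.42% in the KA libraries and at most 0.567% in the others.

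The link proteins did not move as one. Hapln1, the general cartilage and brain link protein, read 3.20, 2.05 and 1.31 FPKM in KA IP, 8.72, 9.57 and 3.07 in AAV control IP and 5.70, 4.06 and 3.76 in PBS IP. The KA samples were below all PBS samples, and the highest KA sample lay just above the AAV control sample #3. The log2 fold change was -1.63 (SE 0.42, adjusted p = 0.030) against the AAV control and -1.07 (SE 0.28, adjusted p = 0.014) against PBS. The first call was lost when any of KA #2, KA #3, AAV control #1 or AAV control #2 was left out, with an adjusted p of up to 0.11. The log2 ratio was -1.80 within run 1 and -1.22 within run 2. In input Hapln1 overlapped between the groups (1.70 to 3.07 FPKM). Hapln4, the link protein of brevican in nets, was a gene of input: 7.86, 7.73 and 6.30 FPKM in KA, 11.3, 10.9 and 8.75 in the AAV control and 8.52, 9.09 and 9.27 in PBS. KA was below every sample of both groups. The difference was called against PBS (log2 fold change -0.31, SE 0.10, adjusted p = 0.044), a call that was lost without any single library of either group, and not against the AAV control (-0.50, SE 0.13, adjusted p = 0.080). With the replicate number as a block it was called against the AAV control (adjusted p = 0.034), as it was with run as a covariate (0.0097), in run 1 alone (0.00047) and without AAV control sample #3 (0.011). In IP, Hapln4 lay between 1.12 and 2.99 FPKM with overlap and no call in the main fits. The log2 fold change was -0.47 (SE 0.25, adjusted p = 0.23) against the AAV control and -0.77 (SE 0.30, adjusted p = 0.068) against PBS. Against PBS it was called lower by DESeq2 (-0.76, adjusted p = 0.049) and without PBS sample #2 (-1.01, adjusted p = 0.021). These settings called 39.2% and 31.2% of all genes.

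The neighbouring link protein genes that are not members gave no common direction. Hapln3, next to Acan, read 0.10, 0.11 and 0.13 FPKM in KA IP and 0.46, 0.27 and 0.56 in AAV control IP, with a log2 fold change of -1.79 (SE 0.51, adjusted p = 0.042, no FPKM filter), while Acan rose. Hapln2, an oligodendrocyte product next to Bcan, was not called (0.72 in the same fit) while Bcan fell. Vcan and Ncan were not called in IP, where their neighbour Hapln1 fell and Hapln4 did not pass the test.

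Of the tenascins, Tnr, which oligodendrocytes and interneurons make and which cross-links nets, read 1.52, 1.52 and 1.33 FPKM in KA IP and 2.10, 1.999 and 1.90 in AAV control IP. These groups did not overlap, but the log2 fold change of -0.40 (SE 0.15, adjusted p = 0.097) did not pass the test. KA was lower than the AAV control for each replicate number. With sequencing run as a covariate the difference was called (adjusted p = 0.035), where 40.2% of 9729 genes were called. PBS IP (2.36, 1.13 and 2.21) spanned the KA values (-0.36, SE 0.23, adjusted p = 0.24). Without PBS sample #2 Tnr was called lower in KA IP (-0.57, adjusted p = 0.049), where 31.2% of all genes were called. In input Tnr was between 2.36 and 3.98 FPKM with no call against either group in the main fits. Against PBS it was called lower without PBS sample #1 (-0.42, adjusted p = 0.040). Without the filter it was also called with DESeq2 size factors (0.043), without KA sample #3 (0.035) and without PBS sample #1 (0.030). Tnc, a tenascin of immature and reactive glia, read 1.93, 1.87 and 0.822 FPKM in KA IP, 2.90, 2.29 and 1.14 in AAV control IP and 1.45, 1.10 and 1.37 in PBS IP, overlapping. Without the FPKM filter it was not called against the AAV control (-0.34, SE 0.36, adjusted p = 0.54) or PBS (0.37, SE 0.27, adjusted p = 0.30), with opposite signs. Without KA sample #3, Tnc was called higher in KA IP than in PBS IP (0.64, adjusted p = 0.042), where 39.7% of all genes were called. In input it was higher in KA (0.509, 0.716 and 0.517) than in the AAV control (0.258, 0.310 and 0.225) and PBS (0.154, 0.275 and 0.266). The log2 fold change there was 1.12 (SE 0.28, adjusted p = 0.047) against the AAV control and 1.29 (SE 0.30, adjusted p = 0.0077) against PBS, from 39 to 53 counts in KA and 12 to 23 in the other libraries. The call against the AAV control was lost without any single library other than AAV control #3, with an adjusted p of up to 0.22.

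Ptprz1 encodes a receptor phosphatase of astrocytes and oligodendrocyte precursors, and also the secreted proteoglycan phosphacan, a ligand of Tnr. It read 10.6, 12.2 and 8.43 FPKM in KA IP, 36.9, 35.2 and 19.8 in AAV control IP and 34.0, 19.9 and 24.0 in PBS IP, without overlap. The log2 fold change was -1.49 (SE 0.24, adjusted p = 0.0052) and -1.32 (SE 0.23, adjusted p = 0.0020). Within run 1 it was -1.66 and within run 2 -1.23. In input the sign was the opposite: 11.6, 11.95 and 8.89 FPKM in KA, 8.50, 9.29 and 6.66 in the AAV control and 9.54, 8.24 and 8.65 in PBS, overlapping, with log2 fold changes of 0.41 (SE 0.15, adjusted p = 0.19) and 0.27 (SE 0.12, adjusted p = 0.13). The input value of 0.41 was called with the replicate number as a block (adjusted p = 0.048), with run as a covariate (0.015) and in run 1 alone (0.00018). The precursor marker sum (6 markers) in IP was 73.7 to 140 FPKM in KA, 84.6 to 86.3 in the AAV control and 49.7 to 63.5 in PBS. This sum is mostly Olig1, and other markers of the list were lower in KA IP: Pdgfra had a mean of 0.260 FPKM against 1.496 and 0.850, Cspg4 0.507 against 1.24 and 0.853, and Gpr17 0.533 against 1.41 and 0.964. Pdgfra and Cspg4 did not overlap either group, and Gpr17 overlapped PBS. Their part in the fall of Ptprz1 was not tested.

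In input as a whole, none of the 6 members that passed the FPKM filter was called against the AAV control, where 4.49% of 10809 genes were, and the replicate block gave 2 calls (Hapln4 and Ptprz1) where it called 10.2% of all genes. Without the filter 3 of 10 were called (Acan, Cd44 and Tnc, all higher in KA), against 7.2% of 15744 genes. Against PBS 2 of 6 were called (Ncan higher, Hapln4 lower) where 27.7% of 10849 genes were, and without the filter 6 of 10 (Acan, Cd44, Tnc, Vcan and Ncan higher, Hapln4 lower) where 27.8% of 15737 were. In this last fit 3 members were called without PBS sample #2 (17.7% of all genes), 4 without KA sample #1 (16.6%) or #2 (18.8%) and 8 without KA sample #3 (40.6%), so the members' count moved with the share over all genes.

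**Figure D3:**
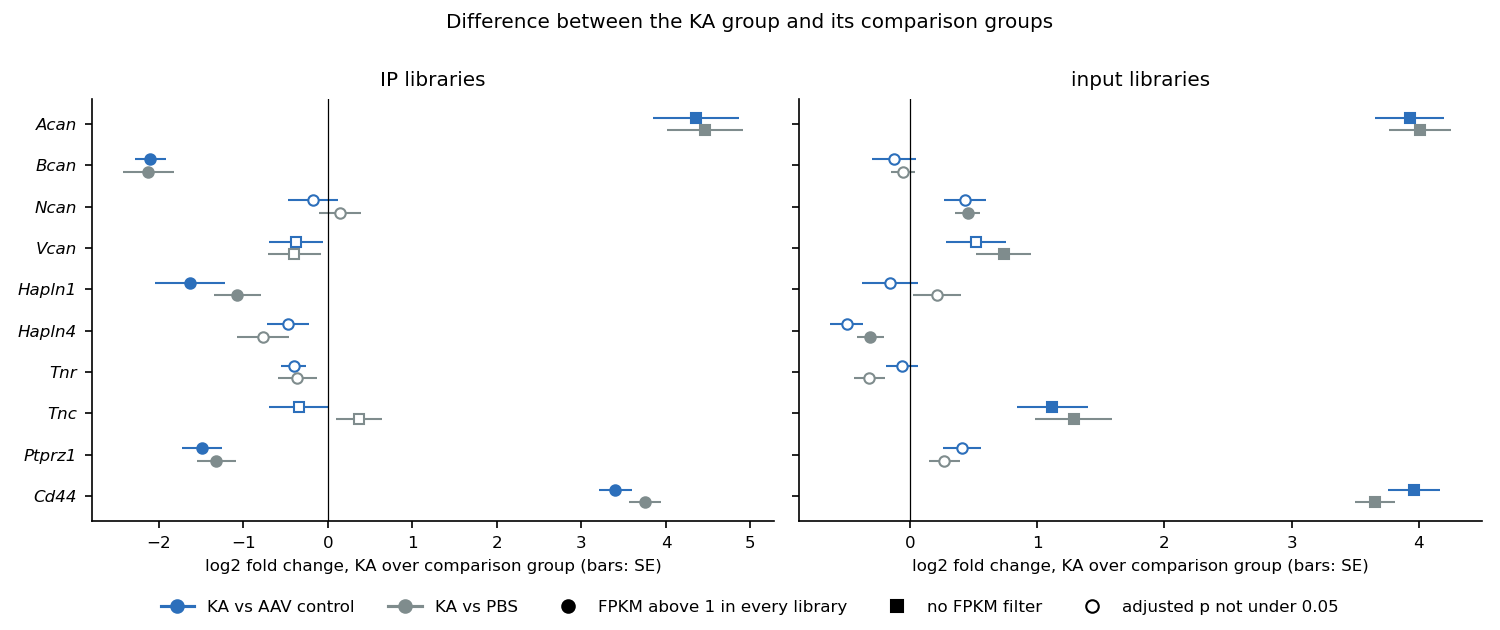
Log2 fold change of each gene in KA over the AAV control (blue) and over PBS (grey), in IP and input libraries, with bars of 1 SE. Circles were fitted with the FPKM filter and squares without it, open symbols did not pass an adjusted p of 0.05. Acan and Cd44 lie above 3 in all 4 comparisons, and Bcan lies near -2 in IP and near 0 in input.

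PBS and the AAV control were compared next. These groups differ in the second injection and in sequencing run, and may differ in the time after the AAV. Their comparison cannot tell these apart. No member was called in IP (8 tested, 0.0% of 10667 genes called) or in input (6 tested, 0.0% of 10924). Of all genes, 1153 in IP and 901 in input had an unadjusted p under 0.05 in edgeR, and DESeq2 called 16 and 30 genes, none of them a member. Without the FPKM filter no member was called either, of 9 in IP (0.0188% of 15978 genes) and 10 in input (0.0% of 15545). Without AAV control sample #3 the same filtered comparison called Tnc (-0.90, adjusted p = 0.032) and Hapln1 (-0.92, adjusted p = 0.037) lower in PBS in IP, 2 of 8 members where 10.2% of all genes were called. In input it called Hapln1 lower (-0.54, adjusted p = 0.027), 1 of 6 where 36.5% of all genes were called. The count of 0 calls thus depends on that sample.

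The ratio of IP to input in the same sample asks how far the RNA of a gene sits on tagged ribosomes. In the AAV control, 5 of 6 members that passed the FPKM filter differed between IP and input (39.7% of 9961 genes), in PBS 6 of 6 (56.3% of 10401) and in KA 5 of 8 (34.4% of 10098). Without the filter the counts were 7 of 10 (37.0% of 15446), 8 of 10 (52.2% of 16038) and 6 of 10 (32.7% of 15525). Bcan, Ncan, Ptprz1, Hapln1, Cd44 and Tnc were higher in IP in both comparison groups, Hapln4 was lower in all 3 groups, and Acan was not called in any. Tnr was lower in IP in PBS and KA, and in the AAV control it was called with the sample as a block (log2 fold change -0.31, adjusted p = 0.041) and without sample #3 (-0.30, adjusted p = 0.049), where 61.3% and 62.7% of all genes were called. The same block called Vcan lower in IP in KA without the filter (-0.70, adjusted p = 0.014) and Ptprz1 higher (0.25, adjusted p = 0.035). Hapln1 was no longer called in the AAV control without sample #1 or #2 (adjusted p of up to 0.12), nor Tnr in PBS without #2 or #3 or in KA without #1 or #2, nor Tnc in KA without #1.

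The enrichment of Bcan fell with KA. Its ratio was 2.48, 2.34 and 2.23 in KA, 11.1, 11.7 and 7.13 in the AAV control and 10.5, 11.8 and 6.97 in PBS. The enrichment of Ptprz1 was also lower in KA, with FPKM ratios of 0.917, 1.02 and 0.949 in KA against 4.34, 3.79 and 2.98 in the AAV control and 3.56, 2.42 and 2.78 in PBS. On TMM-scaled counts its ratio in KA was 1.20 ± 0.0783 (SD, n = 3), so a value near 1 depends on the scaling. Hapln1 ratios were lower as well (1.16, 0.873 and 0.732 in KA, 2.98, 3.12 and 1.75 in the AAV control and 2.50, 2.39 and 1.998 in PBS). Within KA neither of the latter genes passed the test of IP against input (log2 fold change 0.16, SE 0.14, adjusted p = 0.40 for Ptprz1 and 0.13, SE 0.27, adjusted p = 0.73 for Hapln1). Cd44 kept a ratio above 3 in all 9 samples (4.97, 4.69 and 3.92 in KA, 5.69, 7.83 and 7.73 in the AAV control and 5.95, 3.34 and 4.33 in PBS), as its level rose in both kinds of library. Ncan had ratios of 2.42, 2.44 and 2.42 in KA, inside or below the range of 2.12 to 4.27 of the other samples. Hapln4 had ratios of 0.140 to 0.327 in all 9 samples. Tnc ratios were 3.79, 2.61 and 1.59 in KA, 11.3, 7.38 and 5.09 in the AAV control and 9.41, 4.01 and 5.17 in PBS. Vcan ratios were 0.60, 0.61 and 0.30 in KA, 0.97, 0.92 and 1.35 in the AAV control and 1.35, 1.24 and 1.30 in PBS. For both genes every KA ratio was below all others, with input levels under 1 FPKM. Acan had ratios of 0.687, 0.716 and 0.812 in KA, while those of the other samples, from 0.235 to 1.34, rest on 2 to 20 IP counts.

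The size of the KA difference in IP was then set against its size in input, by an interaction term. With the AAV control as baseline 2 of 6 members were called (13.2% of 9180 genes), Bcan (-1.96, SE 0.23, adjusted p = 0.00045) and Ptprz1 (-1.88, SE 0.28, adjusted p = 0.0011). With the sample as a block 4 were called, adding Hapln1 (-1.41, adjusted p = 0.00088) and Ncan (-0.53, adjusted p = 0.026), while the share of all genes called rose to 35.8%. Without AAV control sample #3 the same 4 were called, Hapln1 at an adjusted p of 0.0081 and Ncan at 0.013, with 22.1% of all genes. With PBS as baseline 3 of 6 were called (25.5% of 9305), Bcan (-2.08, SE 0.32, adjusted p = 0.00079), Ptprz1 (-1.60, SE 0.27, adjusted p = 0.0014) and Hapln1 (-1.29, SE 0.38, adjusted p = 0.025). Without the FPKM filter Bcan and Ptprz1 were called with both baselines, 2 of 10 members each, beside 8.28% of 16822 and 20.5% of 17130 genes. In that fit the differences of Cd44 (-0.49, SE 0.26, adjusted p = 0.29, and 0.27, SE 0.25, adjusted p = 0.46) and Acan (0.44, SE 0.60, adjusted p = 0.74, and 0.47, SE 0.56, adjusted p = 0.58) did not pass the test. With the sample as a block it called 5 members against the AAV control (24.0% of all genes), adding Hapln1, Tnc (-1.41, adjusted p = 0.0082) and Vcan (-0.95, adjusted p = 0.027), and 4 against PBS (31.3%), adding Hapln1 and Vcan (-1.15, adjusted p = 0.0076). Tnc was called without AAV control sample #3 as well (-1.66, adjusted p = 0.024). Without the block or the filter the PBS value of Hapln1 was not called (-1.08, adjusted p = 0.051), and it was also lost without KA sample #2 or PBS sample #2.

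**Figure D4:**
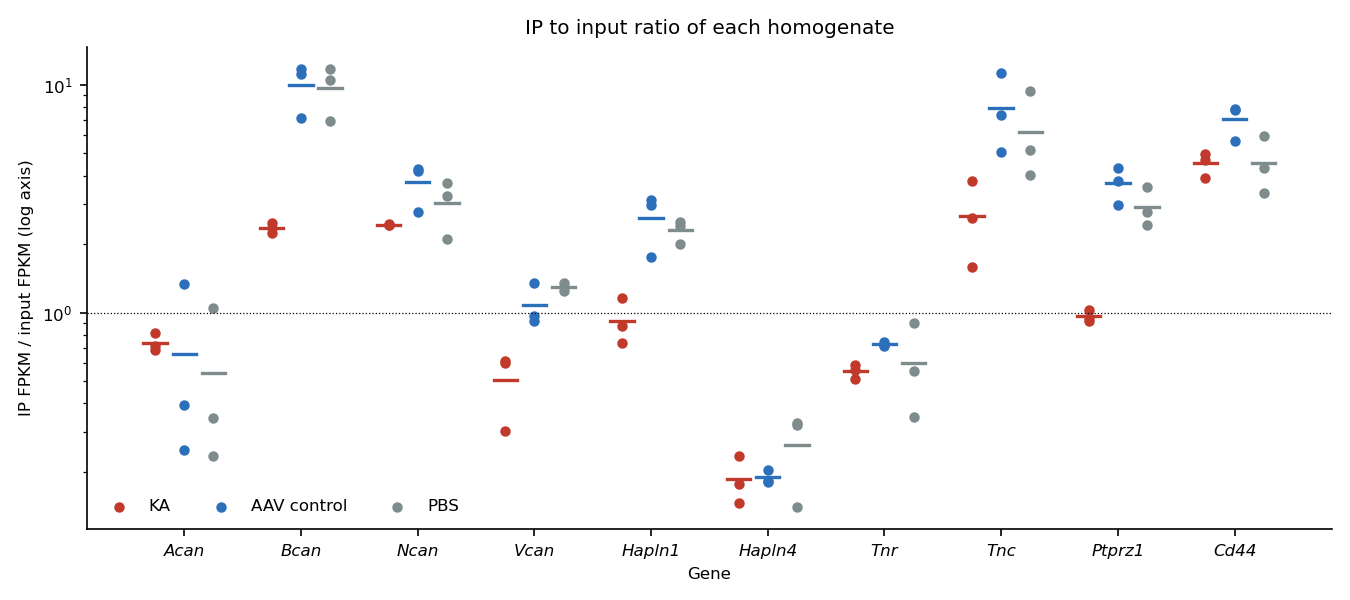
Ratio of IP FPKM to input FPKM (log axis) for each gene in the 3 samples of the KA, AAV control and PBS groups, with lines at the group mean and a dotted line at 1. The KA ratios of Bcan, Vcan, Hapln1, Tnc and Ptprz1 lie below all ratios of the other groups, and those of Cd44 stay above 3.

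Genes that act with the members were taken from 7 lists of 82 names. Without the FPKM filter 68 were tested in KA against the AAV control in IP and 30 were called, 20 higher and 10 lower, with a median log2 fold change of 0.11 beside -0.03 over all genes, of which 19.8% were called. Other chondroitin sulfate proteoglycans gave 5 calls of 7 tested, 3 higher and 2 lower. Spock3 (3.57, SE 0.18) and Bgn (3.41, SE 0.28), a small leucine-rich proteoglycan, were higher, at 15.5 to 19.6 and 16.8 to 22.2 FPKM in KA IP against 1.52 to 1.74 and 1.63 to 2.51 in AAV control IP. Cspg5 (neuroglycan C) fell with Bcan (-1.85, SE 0.22), from 75.0 to 108 FPKM in AAV control IP to 20.1 to 29.0 in KA IP.

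Lectican and matrix proteases gave 6 calls of 8 tested. The aggrecanases Adamts5 (1.96, SE 0.37) and Adamts4 (1.39, SE 0.28), which cut lecticans, were higher, and Mmp14 (-1.30, SE 0.20) and Adamts9 (-1.34, SE 0.29) were lower. Mmp3 (stromelysin 1) had 0 counts in all 3 AAV control IP libraries and 1.67 to 3.54 FPKM in KA IP. Adamts5 stayed under 1 FPKM in every IP library.

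Enzymes of chondroitin sulfate chain synthesis gave 5 calls of 21 tested, with a median of 0.03, a share near the 19.8% of all genes. Chst15 (1.59, SE 0.27), which makes the doubly sulfated E unit, and the chain polymerizing factor Chpf (1.17, SE 0.21) were higher, and Csgalnact1 (-1.10, SE 0.24), which starts chains, was lower. Of the hyaluronan genes 4 of 7 tested were called: Layn (1.76, SE 0.47), a hyaluronan receptor, and Tnfaip6 (1.67, SE 0.35), a hyaluronan binding protein, were higher, and the degrading enzymes Hyal1 (-1.10, SE 0.29) and Cemip (-1.07, SE 0.29) were lower.

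Receptors for chondroitin sulfate and tenascins gave 5 calls of 12. All 3 Nogo receptor genes, which bind chondroitin sulfate, were higher: Rtn4r (2.26, SE 0.27), Rtn4rl2 (2.15, SE 0.25) and Rtn4rl1 (1.55, SE 0.25). Neurons are the main known source of these receptors. The neuron marker sum was also higher in KA IP, with 2 of 4 markers above each comparison range, as given above. The part of neurons in these calls was not tested. Itga8, a subunit of a tenascin-binding integrin, was lower (-1.79, SE 0.34). Among 10 ligands and partners of Ptprz1 and Cd44, 4 were called. Spp1 (osteopontin), a Cd44 ligand, was higher (4.33, SE 0.55), at 10.9 to 16.6 FPKM in KA IP and 0.19 to 1.47 in AAV control IP, and Msn (moesin), which links Cd44 to actin, was higher (1.53, SE 0.18). Ptn (pleiotrophin), the main ligand of Ptprz1, fell with its receptor (-1.53, SE 0.29), from 257 to 473 FPKM to 85.2 to 154. All calls in these paragraphs had an adjusted p under 0.05 in edgeR. Against PBS, 34 of 70 tested genes of the lists were called in IP, 23 higher and 11 lower, where 40.4% of all genes were called.

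**Figure D5:**
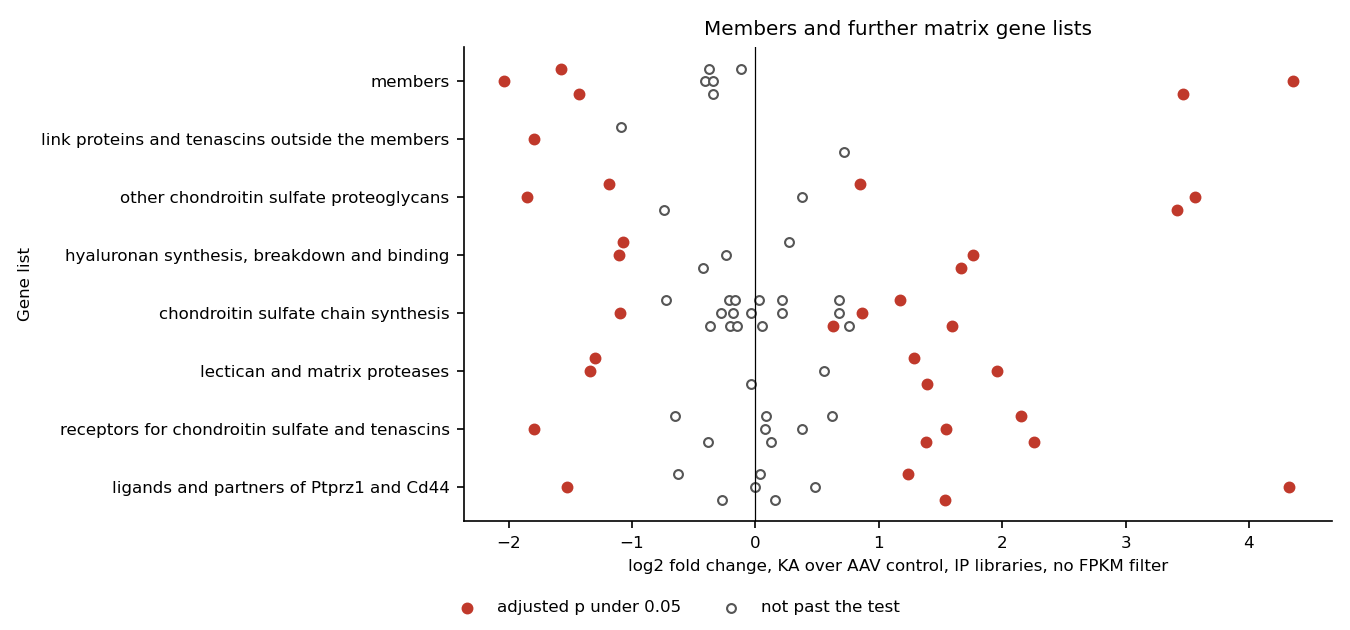
Log2 fold change in KA over the AAV control in IP libraries, fitted without the FPKM filter, for the 10 genes (top line) and the 7 further lists; 1 point per gene, filled where the adjusted p was under 0.05. Mmp3, with 0 counts in the AAV control, is not drawn. Filled points lie on both sides of 0 in most lists, and the list of link proteins and tenascins outside the 10 genes holds a single one, Hapln3.

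Over all 18 libraries the genes most like each member were found by Pearson's r of log2(FPKM + 1) among 13275 genes, a description over libraries that share group, kind and run. Cd44 was most like Serpinf2 (r = 0.99), A2m (0.99) and Gfpt2 (0.98). Bcan was most like S1pr1, Fads1 and Sparcl1 (0.99 each). Acan was most like 5031425F14Rik (0.99), Gm13715 (0.98) and Inhba (0.97), Hapln4 like Rasgef1a (0.99), Tnc like Fgfr2 (0.98), Ptprz1 like Gabrg1 (0.98), Hapln1 like Luzp2 (0.98) and Tnr like Appbp2 (0.95). Vcan reached 0.87 (Rps15a-ps6). Among the members, Ncan and Hapln4, whose genes are neighbours, had the most negative r (-0.88). Hapln4 also had an r of -0.82 with Tnc and -0.77 with Bcan, which lie on other chromosomes.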

How the data were processed

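RNA from anti-GFP immunoprecipitates (IP) and input of 9 pooled samples was sequenced as 18 libraries (NEBNext Ultra II RNA kit). The authors aligned reads to mm10 with STAR and deposited gene counts per library, and the processing notes also name featureCounts and edgeR, while strand and multi-mapping settings are not given in the sources used here. The deposited FPKM values equal count over library total and gene length within 1% for 99.86% of 281246 values. The members, gene lists and tests were chosen with earlier results of these data known.

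Counts were tested with the quasi-likelihood test of edgeR 4.0.16 (R 4.3.3, TMM scaling) across genes above 1 FPKM in every compared library, with Benjamini-Hochberg adjustment over all genes tested; a gene with an adjusted p under 0.05 was called. Members below that filter come from a fit without it (filterByExpr). Scripts were tested on simulated data. Alternatives were DESeq2 1.42.0, DESeq2 size factors, limma-voom (limma 3.58.1), a replicate block, sequencing run as a covariate, run 1 alone, no FPKM filter and each library left out. Shares of lecticans and CpG counts were added after the data were seen. From each further list at most 3 called genes per direction are named, those with the largest absolute change between KA and the AAV control in IP. P-values measure the spread between pooled samples of separate mice.

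Each IP library and the input library with its number were made from 1 homogenate, and their deviations from the group means correlated by 0.165 to 0.758. KA and AAV control samples of the same number also deviated together, by 0.359 to 0.555 in IP and 0.366 to 0.563 in input, and shared a sequencing run. They were treated as pairs only in the replicate block, an alternative fit. The main fits held no block for number or homogenate, so their p-values ignore both pairings. The genes most like Ncan over the libraries are not reported here.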

Additional observations from a re-analysis of the deposited data

Results flagged for a closer look

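The difference of the KA effect between IP and input passed the test for 3 members. With the AAV control as baseline the log2 difference was -1.96 for Bcan and -1.88 for Ptprz1. With PBS as baseline it was -2.08 for Bcan, -1.60 for Ptprz1 and -1.29 for Hapln1. The summed astrocyte markers, made up mostly of Slc1a2, moved with these results: it was lower in KA IP (1020.4 to 1203 FPKM) than in AAV control IP (1411 to 2398) and higher in KA input (366 to 429) than in AAV control input (216 to 262). The markers did not move as one, since Aqp4 was higher in KA IP (mean 352 FPKM) than in the AAV control (183) and PBS (186). Their part in these results was not tested.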

How the results depend on the processing

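The IP calls of Acan, Bcan, Ptprz1 and Cd44 against both groups held in all alternatives run. Of the member log2 fold changes recomputed, 847 kept direction and call, 37 gained a call, 31 lost one and 11 changed sign. In KA against the AAV control in IP, 1960 genes were called, 3356 with the replicate block, 3914 with run as covariate, 4823 in run 1 alone, 3027 without the FPKM filter and 843 to 3369 with 1 library left out (3 to 4 members). In KA against PBS in IP it was 6394 without the filter and 2507 to 3749 (4 to 6 members). PBS against the AAV control gave 16 genes in IP by DESeq2, 3 without the filter and 0 to 1122 (0 to 2 members), and in input 30 by DESeq2, 1 with the block and 0 to 4076 (0 to 1 members). In KA against the AAV control in input the members called were 1 by DESeq2, 2 with the block, 3 with run as covariate, in run 1 alone or without the filter, and 0 to 1 with a library left out. The genes were 885, 1101, 1731, 4781, 1133 and 135 to 2643 in that order. In KA against PBS in input, Ncan kept its call by DESeq2 and with the block, and Hapln4 lost its call in both (adjusted p = 0.091 and 0.054). Without the filter 6 members and 4369 genes were called there, and with a library left out 1 to 2 members and 1716 to 4820 genes. IP against input called 6102 genes with the block in the AAV control (1647 to 6818 with a sample left out, 4 to 6 members) and 5336 in KA (1364 to 5170, 4 to 5 members), and in PBS 4491 to 5227 (5 to 6 members). The interaction with AAV control baseline called 4 members with the block or in run 1 alone and 3286, 2670 (run covariate) or 3396 (run 1) genes, and 506 to 2085 with 2 to 4 members when a sample was left out. With PBS baseline it called 1308 to 2112 genes and 2 to 3 members. The cause of these shifts was not tested.

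Changes of sign, none of a called value, were as follows. Ncan in IP against PBS ranged from -0.074 to 0.32 with a library left out. Bcan in input against the AAV control was 0.11 in run 1 alone and ranged from -0.24 to 0.079. Acan in IP against input of the AAV control ranged from -0.39 to 0.069, Hapln1 in KA from -0.10 to 0.25, and the interaction with AAV control baseline from -0.13 to 1.45 for Acan and from -0.16 to 0.20 for Hapln4, where it was also -0.02. With PBS baseline Tnr ranged from -0.22 to 0.27 and was 0.03 without KA sample #1 and 0.17 without the FPKM filter. The numbers of KA and PBS samples (correlations -0.313 to 0.110) and of PBS and AAV control samples (-0.242 to 0.365) did not pair, and the replicate block there changed 1 member call, that of Hapln4 in input against PBS.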
